A study of Mus musculus with 4 samples.

Results

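The retinoid receptor genes Rara, Rarg, Rxra and Rxrb, the aryl hydrocarbon receptor gene Ahr and the Runx transcription factor genes Runx1, Runx2 and Runx3 were read in germinal centre (GC) and naive B cells of the mouse. These 8 members were chosen by gene symbol, and every probe set annotated to 1 of these symbols alone was taken. That gave 17 of the 45101 probe sets, covering 7 of the 18194 genes with such a probe set. Runx2 had none and is not analysed here. All cells came from adult C57BL6/J wild type mice. GC cells were sorted as B220+, PNA+ and Fas+, and naive cells as B220+ cells negative for PNA and Fas. The pLN arrays hold GC and naive cells of peripheral lymph nodes after immunisation with TNP-KLH in incomplete Freund's adjuvant. The PP arrays hold both cell types from Peyer's patches of mice without treatment, so tissue and immunisation cannot be told apart. Each RNA was pooled from 3 to 5 mice and hybridised to a single array, so each group is a single array, and this small number limits how precise any value is.

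Retinoic acid, made from vitamin A, acts through nuclear receptors: a RAR protein pairs with an RXR protein on DNA, and RXR proteins also pair with other nuclear receptors. AHR is a transcription factor that is held in the cytoplasm until it binds a ligand such as a dietary indole or a dioxin, and then enters the nucleus and pairs with ARNT. RUNX proteins bind DNA through the Runt domain, are stabilised by their partner CBFB, and take part in B and T cell development. In the gut, retinoic acid is known for imprinting homing receptors on lymphocytes and for promoting IgA, and RUNX proteins act with SMAD proteins at the IgA switch promoter.

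Signals are on the scale of an array whose trimmed mean is 500. A probe set counted as above background when it exceeded the detection level of its array, the 90th percentile of 60 probe sets of genes of other tissues. The level was 45.9 in GC and 72.7 in naive cells of pLN, and 79.1 in GC and 243 in naive cells of PP, so dim genes were hardest to detect in naive PP. On naive PP the level rested on Apoa1, which has 4 probe sets on that list and is also made in the gut, and it was 108 without that gene. The labelled cell types carried their markers. All 5 measured B cell markers were above the level on all arrays, 5 of 6 tested GC markers were higher in GC cells and all 5 naive markers were lower. The GC markers Mybl1, S1pr2, Gcsam and Rgs13 were under the level on naive PP, and were still called higher with such signals set to the level. A second probe set of the naive marker Fcer2a, 1451713_a_at, was called higher in GC cells at 1.36, with naive PP (180) under the level. Fas, counted among the GC markers though the cells were sorted on it, differed by 3.30 ± 0.41 (log2 ± SE, limma adjusted p = 9.98e-07). The naive arrays had the larger 3' to 5' ratio of the Gapdh control probe sets, 18.7 in pLN and 96.4 in PP against 1.48 and 1.67 on the GC arrays. This sign of RNA quality moved with every GC-naive value below and, among naive cells, with every PP-pLN value, and its part in them was not tested.

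Of the 17 member probe sets, 6 were above the level on all 4 arrays, 2 on some and 9 on none. The 7 that exceeded it on both arrays of a cell type were tested between GC and naive cells, with the tissues as a block. At an adjusted p under 0.05, 1 was higher and 2 were lower in GC cells, all of Runx1, and 4 were not called. The 1 higher, 1422865_at, was tested through the GC arrays alone, was under the level on both naive arrays, and was not called with those signals set to the level. Over all 21610 probe sets tested in the same fit, 34.0% were called higher and 16.3% lower (50.3% in either direction), so the members' share of calls is near the background. The median log2 difference was -0.12 over the 7 and 0.45 over all probe sets tested, a figure that was 0.14 with quantile normalisation, 0.21 with cyclic loess, 0.036 with dim signals set to the level and -0.14 with no filter on dim probe sets. The error in this fit is the disagreement between the tissues, mostly as pooled over probe sets of like intensity. An SE is thus not the spread of its own probe set. The GC-naive difference had a tissue gap of 0.0039 for Runx3 1440275_at and -2.48 for Runx1 1422864_at, with SEs of 0.41 and 0.52. Because the cells are bulk sorts, fewer cells of a type and less RNA per cell cannot be told apart.

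**Figure D1:**
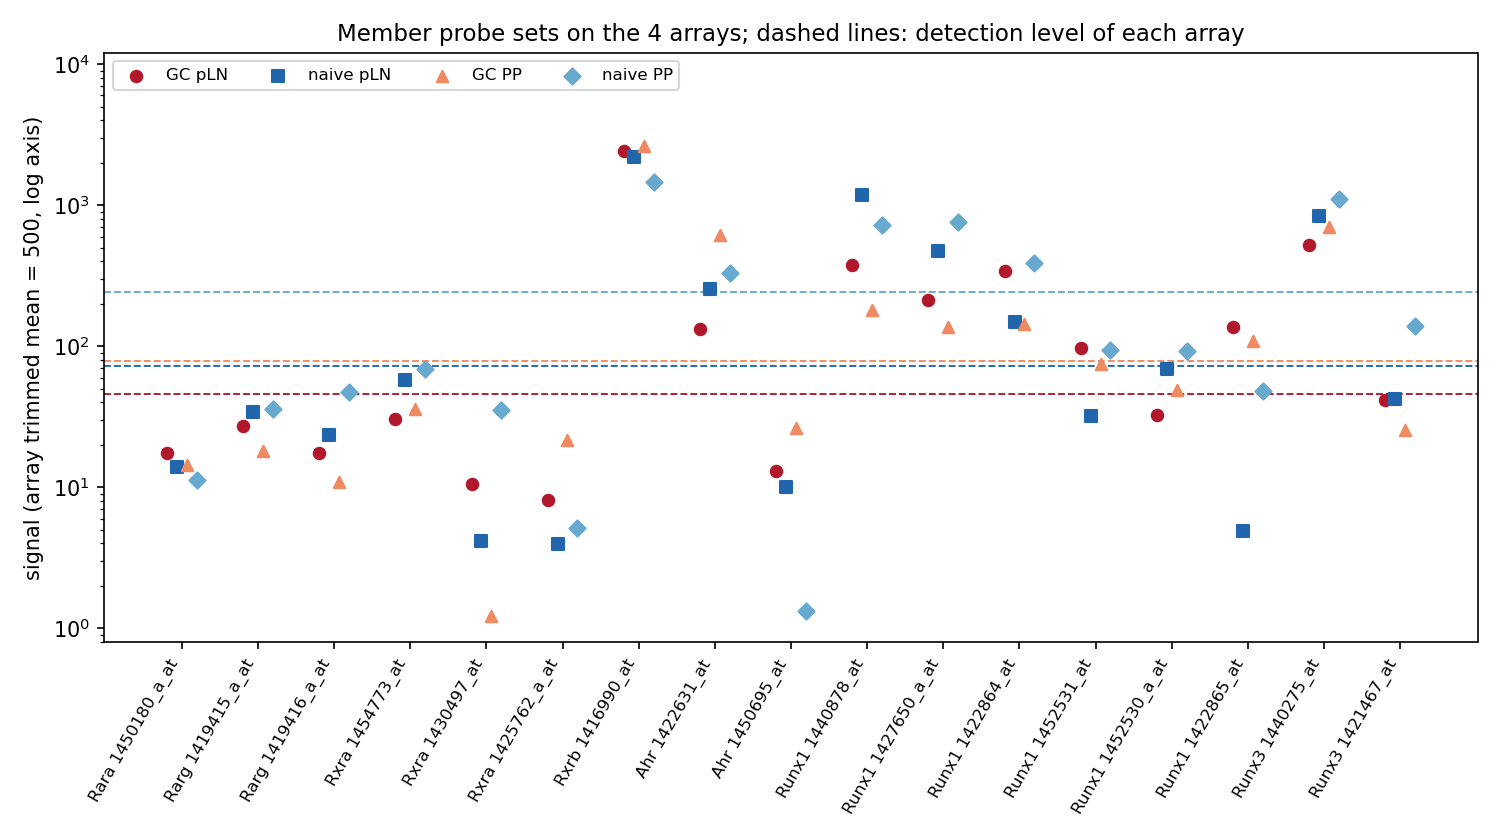
Signal (log axis) of the 17 member probe sets on each of the 4 arrays, with the detection level of each array as a dashed line in its colour. Only Rxrb, Ahr 1422631_at, Runx3 1440275_at and 5 probe sets of Runx1 rise above a level, and levels of different probe sets cannot be set against each other.

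No probe set of Rara, Rarg or Rxra was above the level on any array. Rara, the RAR gene of broad expression, had 1 probe set, which read 17.4 in GC and 13.9 in naive cells of pLN, and 14.5 in GC and 11.2 in naive cells of PP. All 4 values were below the level of their array. Rarg, a RAR gene best known from skin and cartilage, had a pair of probe sets, both between 10.9 and 47.6 and below the level on every array. Rxra, an RXR gene, had 3 probe sets, between 1.22 and 69.0 and likewise never above the level. No GC-naive or PP-pLN fold is given for these genes, since both sides were under the level. The remaining genes of the receptor family, Rarb and Rxrg, were not tested: Rarb was above the level on GC pLN alone, at 73.2, and Rxrg on no array.

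Rxrb, the RXR gene that also binds regulatory DNA of MHC class I genes, was above the level on all 4 arrays. Its single probe set read 2413 in GC and 2200.2 in naive cells of pLN, and 2630.0 in GC and 1461 in naive cells of PP. The naive PP array stood lowest, and the other arrays lay close together. In pLN the GC signal was 1.10-fold the naive signal, and in PP it was 1.80-fold. Over both tissues Rxrb differed by 0.49 ± 0.42 on the log2 scale and was not called (limma adjusted p = 0.345). It was called only with naive pLN left out, at 0.78 (limma adjusted p = 0.0154).

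Ahr was read by a pair of probe sets listed on the same target record, and only 1422631_at rose above the level. It read 132 in GC and 254 in naive cells of pLN, and 616 in GC and 329.9 in naive cells of PP, above the level on every array. GC cells thus had the lowest signal of the 4 in pLN and the highest in PP. The GC signal was 1.92-fold lower than the naive signal in pLN and 1.87-fold higher in PP, and the mean over both tissues was -0.00058 ± 0.48 (limma adjusted p = 0.999). This mean depends on the scaling: it was -0.57 with quantile normalisation (limma adjusted p = 0.354) and -0.62 with cyclic loess (limma adjusted p = 0.232), which left the GC excess in PP at 1.09-fold and 1.07-fold. With Gh and Prm1 added to the background list, the GC pLN and naive PP signals fell under their levels of 156 and 389 and the probe set was not tested. The second probe set, 1450695_at, read between 1.33 and 26.5, under the level on every array.

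Between tissues, Ahr was the only member with a probe set above the level that was at least 2-fold higher in PP GC cells. It was 4.67-fold higher in GC PP than in GC pLN and 1.30-fold higher in naive PP than in naive pLN. A PP excess of 2-fold or more was seen for 5.05% of all probe sets above the level on either GC array, and for 6.61% on the naive arrays. The GC ratio was 4.35 with quantile normalisation, 4.65 with cyclic loess and 3.87 on the deposited scaling. Each group is 1 array, so this difference has no replicate check and no test.

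Summed markers of other cell types also differed between the arrays. The 8 gut epithelium markers summed to 691 in GC and 1415 in naive cells of pLN, and 2246 in GC and 4062 in naive cells of PP, with 2, 3, 6 and 4 of them above the level. Their sum was higher in PP in both cell types, and naive PP, not GC PP, was highest. Of the 8, 3 were highest on GC PP, as Ahr was, and 5 on naive PP. Krt18, a keratin of simple epithelia, read 45.0, 104, 274 and 197 in the same array order, and its partner Krt8 read 0.902, 19.0, 128 and 1241. The 10 macrophage and dendritic cell markers summed to 2033, 1229, 2701 and 938, with 6, 5, 6 and 1 above the level. Flt3 was the largest part of both GC sums, at 1083 in pLN and 1231 in PP, against 71.3 and 14.3 on the naive arrays. Of these, 4 were highest on GC PP, 4 on naive PP, 1 on GC pLN and 1 on naive pLN. Itgax, the CD11c integrin chain of dendritic cells, read 30.7, 199, 424 and 112, while Adgre1, the F4/80 antigen of macrophages, read 55.8, 323, 20.5 and 96.4. The 8 measured T cell markers summed to 652, 1400.2, 1147 and 622, with 6, 6, 4 and 1 above the level, and 3 of them were highest on GC PP, 4 on naive pLN and 1 on GC pLN. Cd3e, a chain of the T cell receptor complex, read 95.3, 95.8, 244 and 74.1, while Cd8a, the coreceptor of cytotoxic T cells, read 127, 548, 273 and 388. No marker of these lists read 0 on any array. The part of these cells in the Ahr values was not tested.

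**Figure D2:**
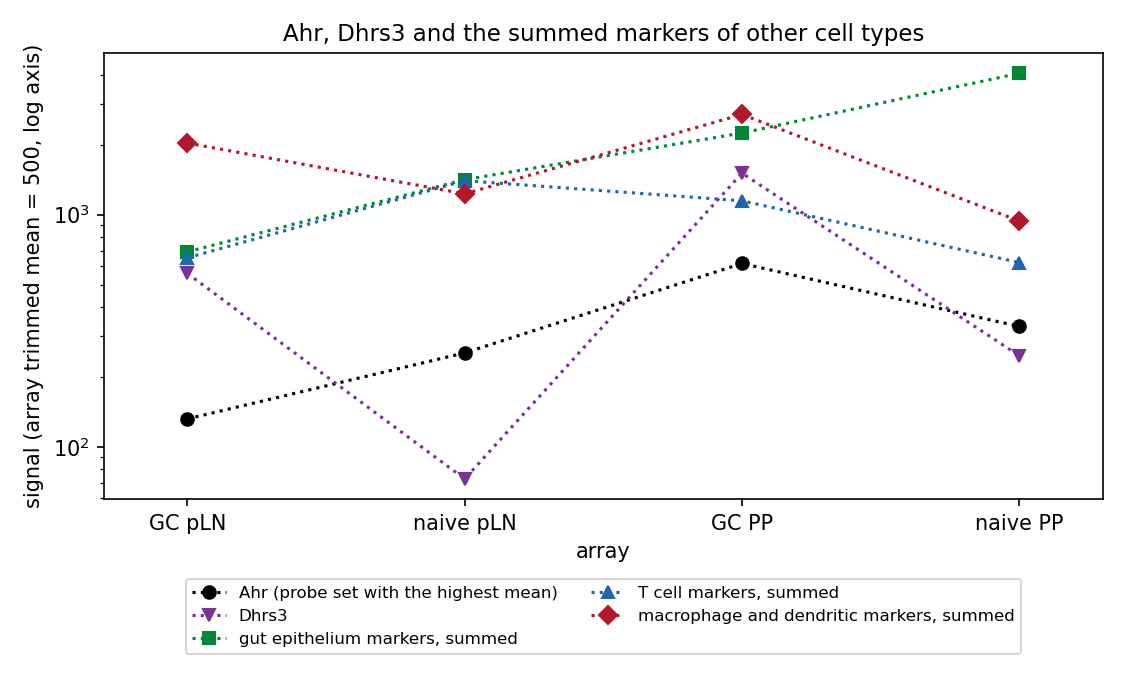
Signal (log axis) of Ahr, of Dhrs3 and of the summed marker lists of 3 other cell lineages on the 4 arrays, 1 point per array; the dotted lines only join points of 1 series. Ahr, Dhrs3 and the macrophage and dendritic sum peak on GC PP, while the gut epithelium sum peaks on naive PP.

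The start regions of the Runx1 and Runx3 genes are shown because these are the detected Runx members and both genes are transcribed from a distal and a proximal promoter. The RefSeq promoter table (GRCm38.p6) held 15 windows for 7 of the members, and Ahr was not among them. Each window below is the 250 bases before a transcript start, 5' to 3' on the gene's strand. Capitals mark matches to TGTGGT, the core bound by RUNX proteins, on either strand.
Runx1 distal (chr16:92826075-92826324, minus strand): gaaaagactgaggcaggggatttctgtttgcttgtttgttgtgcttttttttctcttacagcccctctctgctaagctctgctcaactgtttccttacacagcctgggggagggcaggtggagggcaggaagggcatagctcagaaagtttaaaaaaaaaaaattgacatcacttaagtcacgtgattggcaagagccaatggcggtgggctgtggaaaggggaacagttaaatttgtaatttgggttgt
Runx1 proximal (chr16:92697330-92697579, minus strand): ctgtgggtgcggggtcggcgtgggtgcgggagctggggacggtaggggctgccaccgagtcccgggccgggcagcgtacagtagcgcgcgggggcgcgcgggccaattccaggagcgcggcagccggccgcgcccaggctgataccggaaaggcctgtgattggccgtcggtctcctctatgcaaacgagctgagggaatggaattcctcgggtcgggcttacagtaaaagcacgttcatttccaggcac
Runx3 distal (chr4:135120395-135120644, plus strand): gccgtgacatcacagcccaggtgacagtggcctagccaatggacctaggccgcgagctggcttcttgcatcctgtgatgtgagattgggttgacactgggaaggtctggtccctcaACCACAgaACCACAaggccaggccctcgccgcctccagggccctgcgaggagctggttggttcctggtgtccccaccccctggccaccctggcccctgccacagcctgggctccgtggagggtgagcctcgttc
The distal window of Runx3 held 2 matches, which begin 134 and 126 bases before the start, and neither Runx1 window held any. The proximal window of Runx3 held none either. Of all 32851 windows, 14% held TGTGGT, and among the 15 member windows 4 did, in Rara, Rarg, Runx2 and Runx3. The GCGTG core of the AHR-ARNT site was in 5 member windows, of Rara, Rarg, Rxrb (both windows) and Runx1, against 28.2% of all windows. AGGTCA, the hexamer bound by retinoid and related nuclear receptors, was in 3 (Rarg, Rxra and Runx2), against 14% of all windows. Where a window held matches to more than 1 of these motifs, the matches did not overlap. A match is a description of these letters and not a bound site. The distal and proximal windows of Runx1 lay 129 kb apart, and their G and C bases made up 45.6% and 67.6%.

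Runx1, known for its part in blood stem cell formation and B cell maturation, had 6 probe sets, and these disagreed. On 1440878_at the signals were 380.0 in GC and 1188 in naive cells of pLN, and 181 in GC and 726 in naive cells of PP. GC cells were 3.13-fold lower in pLN and 4.02-fold lower in PP, and the probe set fell by 1.77 ± 0.43 on the log2 scale (limma adjusted p = 0.00146). On 1427650_a_at the signals were 213, 477, 138 and 759 in the same order. The fall on this probe set was 1.73 ± 0.46 (limma adjusted p = 0.00308). Both calls were lost without GC PP, at -1.26 (limma adjusted p = 0.222) and -1.44 (limma adjusted p = 0.178), and that of 1427650_a_at also without GC pLN, at -2.02 (limma adjusted p = 0.0599).

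The other Runx1 probe sets were not called lower. On 1422864_at the signals were 340.5, 149, 144 and 390.1, so that GC cells were 2.29-fold higher in pLN and 2.72-fold lower in PP. The mean difference was -0.12 ± 0.52 and was not called (limma adjusted p = 0.864). On 1422865_at, listed on the same target record as 1422864_at, the signals were 138, 4.90, 109 and 48.0. The GC arrays were above their level and the naive arrays were not, and the probe set rose by 1.98 ± 0.56 (limma adjusted p = 0.00528). This call depends on signals under the level: set at the level, they gave -0.13 (limma adjusted p = 0.929), GC cells were at least 1.89-fold higher in pLN, and PP gave no fold. In that setting naive PP was raised to its level of 243, which rests on Apoa1 and exceeds the GC PP signal. Without that gene the level was 108, and the setting was not run with it. The call was also lost without GC pLN and without GC PP, where the differences were 1.83 and 2.13. The difference moved to 1.13 without naive pLN and 2.82 without naive PP, and to 1.15 and 2.59 with a 4-fold larger and smaller offset. Probe set 1452531_at was above the level on GC pLN alone (97.6, against 32.3, 74.7 and 94.5 elsewhere), and 1452530_a_at on no array (32.4 to 93.0). The mean of all 6 probe sets gave Runx1 a difference of -0.32 (limma adjusted p = 0.512). Where along the transcript each probe set lies, and from which of the start regions shown above the RNA came, was not analysed here.

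Runx1 also differed between tissues in ways that changed with the probe set. In GC cells 1440878_at was 2.10-fold lower and 1422864_at 2.37-fold lower in PP than in pLN, where 2.26% of all probe sets were at least 2-fold lower. In naive cells 1422864_at was 2.62-fold higher in PP, and 1440878_at was 1.64-fold lower. In that comparison 20.0% of all probe sets above the level on either array were at least 2-fold lower in PP, and no such member probe set was. The T cell marker sum given above, of cells that also make Runx1 and Runx3, was highest on naive pLN and lowest on naive PP. Of the Runx probe sets above the level on all arrays, 1440878_at was highest on naive pLN, while 1427650_a_at, 1422864_at and Runx3 1440275_at were highest on naive PP. The part of T cells in the Runx values was not tested.

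Runx3, a Runx factor of cytotoxic T cells and of TGF-beta responses, had a pair of probe sets. On 1440275_at the signals were 525 in GC and 834 in naive cells of pLN, and 697 in GC and 1103 in naive cells of PP, all above the level. GC cells were 1.59-fold lower in pLN and 1.58-fold lower in PP. The difference of -0.65 ± 0.41 was not called (limma adjusted p = 0.193). It was called lower after quantile normalisation (-1.06, limma adjusted p = 0.0364), after cyclic loess (-1.03, limma adjusted p = 0.0367) and without naive pLN (-0.85, limma adjusted p = 0.0461). Between tissues the same probe set was 1.33-fold higher in PP among GC cells and 1.32-fold higher among naive cells. The other probe set, 1421467_at, read 25.5 to 140 and was below the level on every array. Its 139.8 on naive PP is below because of Apoa1, and is above the level of 108 without that gene.

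**Figure D3:**
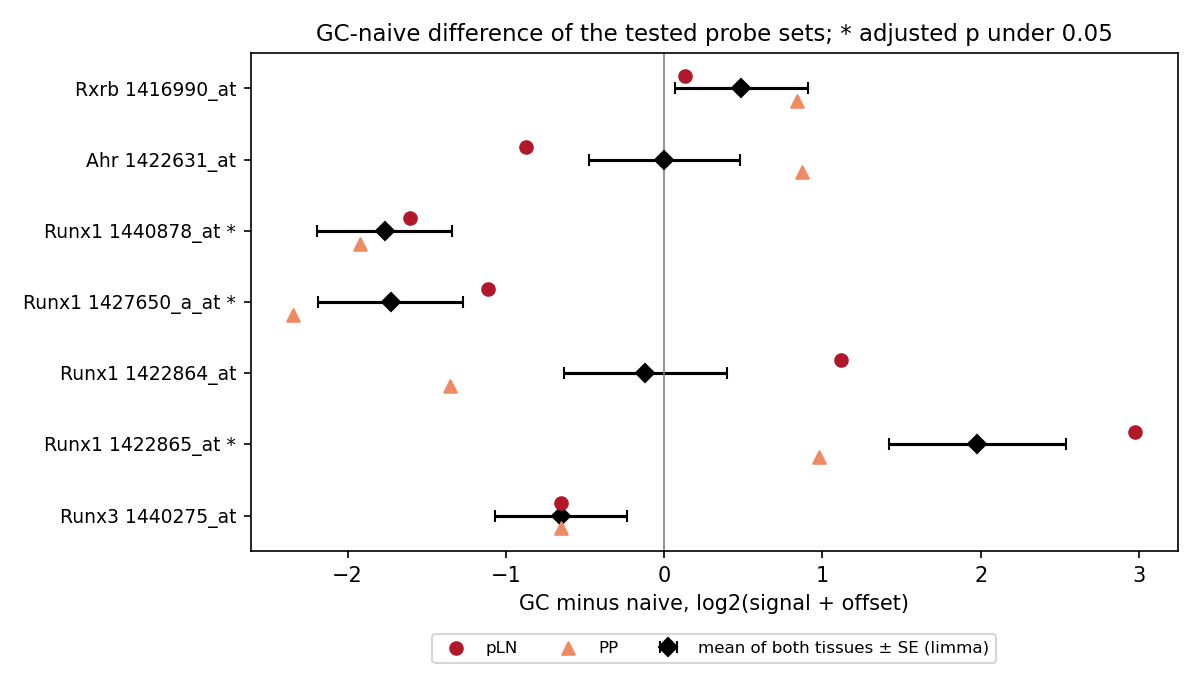
GC minus naive difference on the log2(signal + offset) scale of the 7 tested member probe sets, with pLN (circles), PP (triangles) and their mean ± SE from limma (diamonds); an asterisk marks an adjusted p under 0.05. Both tissues lie on the same side of 0 except for Ahr and Runx1 1422864_at, and the 3 called probe sets all belong to Runx1.

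Counted within a tissue at 2-fold or more, without a test, 3 member probe sets of 8 above the level on either array were higher in pLN GC cells and 2 were lower, all of Runx1. Over all probe sets 31.6% were higher and 19.1% lower. In PP 1 of 7 was higher and 3 were lower, again all of Runx1, against 42.3% and 19.0% over all probe sets. As scaled here, Rxrb, Ahr and Runx3 stayed under 2-fold in both tissues. Other scalings took Ahr past 2-fold in pLN, with a GC to naive ratio of 0.388 (quantile), 0.367 (cyclic loess) and 0.461 (deposited). They took Runx3 past 2-fold in PP, with 0.447 (quantile) and 0.439 (cyclic loess), and to 0.4998 in pLN with quantile normalisation.

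Other genes of these pathways were read from gene lists by the probe set of each gene with the highest mean signal. Over the 9739 genes tested this way, 25.4% were higher and 22.9% lower in GC cells, with a median log2 difference of 0.01. Of 12 genes of retinoid synthesis, binding and breakdown, 11 were measured and 3 tested, of which 2 were higher, none was lower and 1 was not called (median 1.26). Dhrs3, a retinaldehyde reductase that is itself induced by retinoic acid, rose by 2.63 ± 0.44 (limma adjusted p = 3.08e-05). Its signals were 558 in GC and 72.8 in naive cells of pLN, and 1509 in GC and 247 in naive cells of PP, with both naive values just above the level. Rdh10, which makes retinaldehyde, rose by 1.26 ± 0.46 (limma adjusted p = 0.0248), and by 1.17 with naive PP set at the level. The enzymes of the last step, Aldh1a1, Aldh1a2 and Aldh1a3, were below the level on every array, as were Cyp26a1 and Cyp26b1, which break retinoic acid down.

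Of 10 nuclear receptors that pair with RXR or share its sites, 9 were measured and 2 tested. Ppard, a fatty acid sensor, fell by 2.28 ± 0.46 (limma adjusted p = 0.000286), with 75.4 and 81.1 on the GC arrays against 414 and 458 on the naive arrays. Nr4a1, an early response gene, was not called (0.58 ± 0.44, limma adjusted p = 0.273). The median of these 2 was -0.85. All 8 measured coactivators and corepressors were tested: 3 were higher, 1 lower and 4 not called, with a median of 0.03. Hdac3, the deacetylase of the NCOR complex, rose by 1.95 ± 0.42, the acetyltransferase gene Ep300 by 1.35 ± 0.43 and Tbl1xr1, a further subunit of the NCOR complex, by 1.28 ± 0.44. Among the other Tbl1xr1 probe sets, 1450739_at was called lower at -1.05 and 1455109_at higher at 2.89, the latter tested through the GC arrays alone. Tbl1xr1 1422761_at and 1442312_at were not called (0.49 and 1.12). Ncoa3, a coactivator, fell by 1.45 ± 0.49, but its second probe set differed by 0.08 and was not called. Of the 4 not called, 3 had other probe sets that were: Ncoa2 1435233_at was higher at 3.08, Nrip1 1454295_at higher at 2.32 and Crebbp 1434633_at lower at -1.83. Those of Ncoa2 and Nrip1 read 229 and 108 on naive PP, under the level, and were tested through the GC arrays alone.

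The AHR list had 11 genes, of which 8 were measured and 3 tested, with a median of 0.73. Tiparp, a target and feedback inhibitor of AHR, was called higher at 1.35 ± 0.45 (limma adjusted p = 0.0156), with 442 in GC and 222 in naive cells of pLN, and 442 in GC and 120 in naive cells of PP. The last value was under the level, and at the level the difference was 0.89 and not called (limma adjusted p = 0.0945). It is under because of Apoa1, and is above the naive PP level of 108 without that gene. The other Tiparp probe sets, 1452160_at and 1452161_at, were called higher at 1.86 and 1.83, but were tested through the GC arrays alone. Arnt, the partner of AHR, and Nfe2l2, a stress factor, were not called by the probe set used, while Arnt 1449696_at was called higher at 1.19 (limma adjusted p = 0.0386). That Arnt probe set read 154 on naive PP, under the level, and was tested through the GC arrays alone. The classical targets Cyp1a1, Cyp1a2 and Cyp1b1 and the repressor Ahrr were below the level on every array, on GC PP too, where Ahr was highest.

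All 9 genes of the Runx partner list were measured and 7 tested, with 2 higher, 1 lower and 4 not called (median -0.43). Cbfb, the stabilising partner of the RUNX proteins, rose by 1.45 ± 0.42 (limma adjusted p = 0.00595), with 3356 against 1447 in pLN and 3441 against 1056 in PP. Tle4, a Groucho corepressor, rose by 1.23 ± 0.47 (limma adjusted p = 0.0326). Hipk2, a kinase of RUNX1, fell by 1.93 ± 0.43 by the probe set used. Its probe set 1448631_a_at was also called lower at -1.47, and so was 1429566_a_at at -2.29, tested through the naive arrays alone. Hipk2 1425983_x_at and 1456022_at were not called (-0.82 and 0.94). Hipk2 1428433_at was called higher at 3.75, but it read 11.1 on naive PP, under the level, and was tested through the GC arrays alone. Of the 4 not called, Tle1 1422751_at was called higher at 1.58, Tle3 1419654_at higher at 2.41 and Cbfa2t3 1440964_s_at lower at -2.30. The Tle1 probe set was under the level on both naive arrays (49.4 and 5.70) and was tested through the GC arrays alone. Of the 3 retinoid-responsive gut homing genes, Itgb7 and Itga4 were lower and Ccr9 was not called. Itga4, the alpha 4 integrin chain, fell by 2.46 ± 0.47, and Itgb7, the beta 7 chain, fell by 3.67 ± 0.47, with a list median of -2.46; of the 4 tested probe sets of Itga4, 1456498_at and 1450155_at were not called (-0.08 and 0.49).

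Of the 50 measured genes on these lists, Dhrs3 was at least 2-fold higher in PP in both cell types, without a test: 2.70-fold in GC and 3.39-fold in naive cells. The naive signals of 72.8 and 247 lay at the levels of their arrays, 72.7 and 243, so the naive ratio is close to that of these levels. Both signals were under the levels with Gh and Prm1 on the background list (120 and 389). Without Apoa1 the levels were 67.9 and 108, and both signals were above them. Itga4 was higher and Itgb7 lower in PP among GC cells. Among naive cells Nr4a1 was higher, and Arnt, Ep300, Tbl1xr1 and Tle4 were lower. With Dhrs3 counted, 2 of 27 list genes above the level on a GC array were higher and 1 lower, against 5.05% and 2.26% of all probe sets. With Dhrs3 and Ccr9 counted, 2 of 26 on the naive arrays were higher and 5 lower, against 6.61% and 20.0%. The naive count of lower genes is thus near the share over all probe sets. Ccr9 read 224 on naive pLN and 48.1 on naive PP, the latter under its level of 243, which gives no fold.

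Together 8 genes of these lists were called higher and 5 lower in GC cells, out of 3, 2, 8, 3, 7 and 3 tested list by list. Over all genes tested this way 25.4% were higher and 22.9% lower, so these counts are not read as a shift of the pathways. Without GC pLN 2 were higher and 3 lower, and without GC PP none was higher (4 by limma's unadjusted p under 0.05) and 3 were lower; without naive PP 9 were lower.

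The genes most like each detected member over the 4 arrays were found by the root mean square difference of log2 profiles centred on their mean, among 10013 other genes. For Ahr they were Dtx4 (0.201) and Krt18 (0.226), and no gene came within 0.2. For Runx1 1440878_at they were Emp3 (0.08) and Hcst (0.08), with 15 genes within 0.2. For Runx3 they were Pcbd2 (0.02) and Erlin2 (0.05), and for Rxrb Ankrd39 (0.02) and R3hdm1 (0.04), with 463 and 563 genes within 0.2. With 4 arrays such likeness is a description only.

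**Figure D4:**
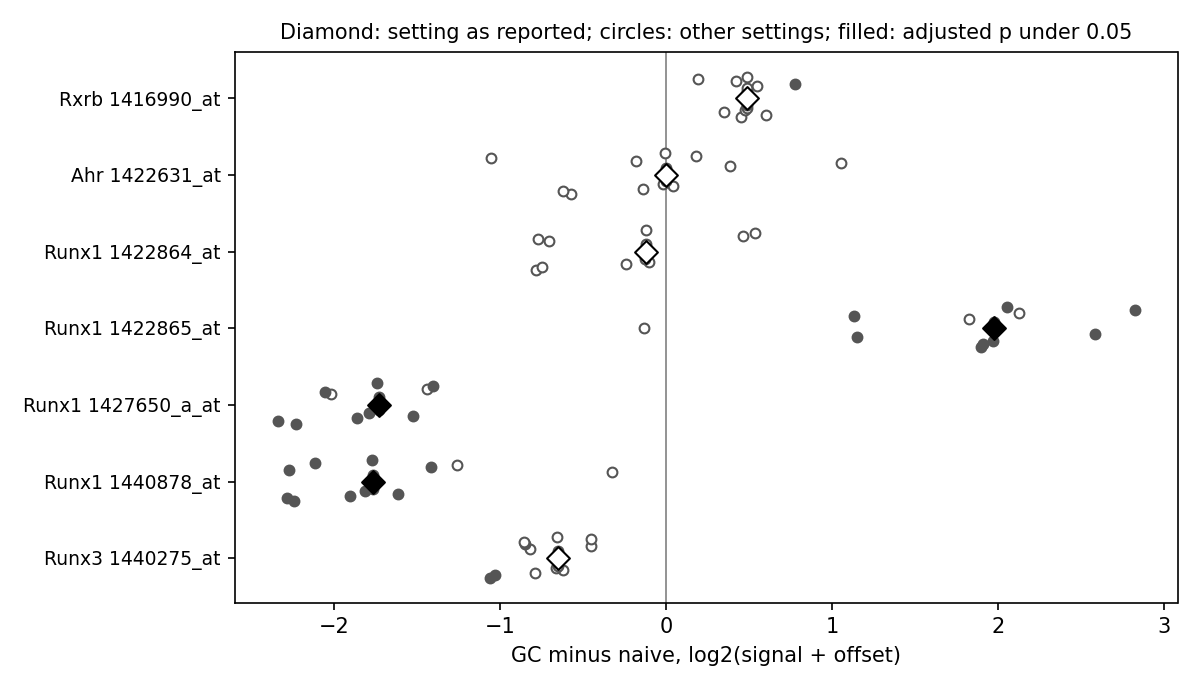
GC minus naive difference on the log2 scale of the 7 tested member probe sets under the setting as reported (diamonds) and the other settings (circles), filled where the adjusted p was under 0.05. Rxrb, Runx3, Runx1 1440878_at and Runx1 1427650_a_at keep their side of 0 under every setting shown, while Ahr, Runx1 1422864_at and, with dim signals set to the level, Runx1 1422865_at lie on both sides.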

How the data were processed

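The 4 populations were measured, each on 1 Affymetrix array. Per the labels' protocols, RNA of sorted cells was extracted with TRIzol and labelled with biotin, and GCOS made the signals, per the submitters' processing notes. The version and the signal algorithm are unknown here. The values as deposited are intensities divided so that each array has a median of 1. Each array was rescaled here to a 2% trimmed mean of 500, and an offset of 14.4, the median of 60 background probe sets, was added before log2. Log2 differences are on that scale and understate those of dim probe sets.

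The GC-naive test used limma 3.58.1 in R 4.3.3, blocked on tissue, with the variance prior following intensity. P-values were adjusted by Benjamini-Hochberg over every probe set that exceeded the level in both tissues of GC or of naive cells. The fit leaves 1 residual degree of freedom, beside 24.0 from the prior. P-values cover only the disagreement between tissues, mostly as pooled over other probe sets, and not that between mice. The fit was tested on 25 simulated data sets, with 100 probe sets changed by a log2 of 1 and 100 by 2. Its share of false calls exceeded the nominal level, with a median of 15.6% (0 to 23.4%). A median of 5 of 100 changes were recovered at a log2 of 1 and 67 of 100 at 2. Only these few of 21610 probe sets were changed in a simulation, while 50.3% were called in the data. The adjustment is stricter where so few change, so the recovered and false shares may not hold for the fit reported here. A probe set that was not called may still differ. Comparisons of single arrays have no test.

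Of 45101 probe sets, 34958 had 1 gene symbol, 932 several and 9211 none listed. The members and lists were chosen with earlier results of these data known. The text names all members, up to 4 called genes of each list by size, and the 2 genes most like each detected member; genes below the level and those differing between tissues were named after their values were seen. Alternatives covered scaling, offset, filter, background list, dim signals, block, trend, probe set choice, fold and each array left out; the background list without Apoa1 was added after seeing the data.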

Additional observations from a re-analysis of the deposited data

Results flagged for a closer look

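For a pair of the 7 tested member probe sets the GC-naive difference had opposite signs in the tissues. Ahr 1422631_at was lower in GC cells of pLN (-0.87 on the log2 scale) and higher in those of PP (0.87), a gap of 1.75. Runx1 1422864_at was higher in pLN (1.12) and lower in PP (-1.36), a gap of -2.48. Among all tested probe sets 15% had opposite signs, 7.23% had a gap at least as large as that of Ahr and 1.86% one at least as large as that of Runx1 1422864_at. Each sign rests on 1 array against 1 array, so the difference was not tested.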

How the results depend on the processing

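No paired analysis was possible because each group has 1 replicate number alone; the fit pairs arrays by tissue instead, through its block. Rxrb, Runx3, Runx1 1440878_at and Runx1 1427650_a_at kept the direction of their GC-naive difference under all 18, 18, 18 and 16 alternatives run for them, and the calls of the last pair held under 16 and 14. The cause of the changes below was not tested.

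Runx1 1440878_at was not called with the mean of a gene's probe sets (-0.32). Runx3 was called with quantile normalisation (-1.06) and cyclic loess (-1.03). Ahr was -0.57 with quantile normalisation and -0.62 with cyclic loess, and changed sign with a 4-fold larger offset (0.041) and with the mean of probe sets (0.39), and Runx1 1422865_at with dim signals set to the level (-0.13). Leaving out 1 array at a time, in fits without the block, which 3 arrays leave no room for, gave 0.19 to 0.78 for Rxrb, -1.05 to 1.05 for Ahr, -0.77 to 0.54 for Runx1 1422864_at, 1.13 to 2.82 for Runx1 1422865_at, -2.27 to -1.26 for Runx1 1440878_at and -0.85 to -0.45 for Runx3. Ahr changed sign without GC pLN (1.05) or naive PP (0.18), and Runx1 1422864_at without GC PP (0.47) or naive PP (0.54).

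Of the members, 0 were called higher with the detection level doubled, with Gh and Prm1 on the background list, with dim signals at the level, and per gene by the brightest probe set or the mean; 1 and 0 were called lower by the last pair. Leaving out 1 array gave 0 to 2 higher and 0 to 3 lower. By limma's unadjusted p under 0.05, the count higher was 0 under each of those 5 settings and without GC pLN and 1 without GC PP, and the count lower was 1 with the mean and 0 without GC PP. Over all features, taking the brightest probe set or the mean of a gene called 2339 and 2894 higher and 2149 and 1604 lower, and leaving out 1 array called 2248 to 9192 higher and 663 to 4994 lower, both lowest without GC PP. The pathway lists had 5 genes higher without the block and 3 lower with the mean of probe sets, and 0 to 10 higher and 3 to 9 lower with 1 array left out.

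The member counts at 2-fold moved with the filter and the fold, and so did the counts over all probe sets. With no filter, 11266 of all probe sets were higher in pLN GC cells against 7722 as reported. In PP, 15463 were lower against 4200. At 3-fold, 2317 were lower in pLN against 4662, and with dim signals at the level 5246 were higher in PP against 9338. The moves below are thus not read as a result about the members. In pLN, 5 were higher in GC cells with no filter and 1 with Gh and Prm1 or with dim signals at the level, while 4 were lower with quantile normalisation or at 1.5-fold and 1 at 3-fold. In PP, 3 were higher with no filter or at 1.5-fold and 0 with the level doubled, with Gh and Prm1, with dim signals at the level or at 3-fold, and 6 were lower with no filter. Between tissues, 3 were higher in PP GC cells with no filter and 0 lower at 3-fold. In naive cells 6 were higher in PP with no filter, 2 at 1.5-fold or without Apoa1, and 0 with the level doubled or at 3-fold, and 1 was lower on the deposited scaling or with no filter and 2 at 1.5-fold. The high level of naive PP limits what can be said of dim members there.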
